A study of Mus musculus with 9 samples.

Results

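The 10 genes described here are transcriptional targets of β-catenin whose products act back on Wnt signaling: Axin2, Tcf7, Lef1, Rnf43, Znrf3, Nkd1, Nkd2, Notum, Sp5, and Apcdd1. They were chosen by name, and 10 of 10 were found among the 50686 genes of the count table. Of these, 8 had enough counts for testing, whereas Nkd1 and Notum did not pass the filter on low counts and are described by their counts alone. RNA-Seq was performed on 9 libraries in 3 groups of 3. The first group was MC3T3-E1, a mouse osteoblast line derived from calvaria, labeled as control. The second was the same line given 10 µM SB216763, a small-molecule inhibitor of glycogen synthase kinase 3 (GSK3), for 14 days. The third was mouse pulmonary endothelial cells (ECs) labeled as having no treatment, which the study isolated by FACS. The culture time of the control cells and the strain, sex and age of the mice that gave the ECs are not given in the sources used here. All osteoblast libraries came from 1 cell line, and nothing in the labels says that the 3 libraries of a group came from separate cultures or animals. The p-values therefore measure the spread between these libraries, which may be technical.

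In Wnt signaling, a complex built on the AXIN and APC scaffolds holds β-catenin for phosphorylation by casein kinase 1 and GSK3, after which it is degraded. When a Wnt ligand engages Frizzled and LRP5 or LRP6, or when GSK3 is inhibited, β-catenin escapes, enters the nucleus, and activates genes together with TCF/LEF factors. Several of those genes encode brakes on the pathway, and Axin2 in particular is widely used as a readout of β-catenin activity. In bone, the pathway is known for promoting the commitment and activity of osteoblasts.

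The libraries held between 30990107 and 68946333 counts. Levels are given as CPM, the counts of a gene relative to those of its library, scaled by the trimmed mean of M values (TMM), with the SD over 3 libraries. The labels of the cells were checked against marker genes. The 10 endothelial markers summed to between 7382 and 7600 CPM in ECs, to between 4.14 and 4.83 CPM in control osteoblasts, and to between 5.34 and 5.85 CPM in treated osteoblasts. The 10 osteoblast markers summed to between 43990 and 59417 CPM in control osteoblasts, to between 8100 and 8373 CPM after SB216763, and to between 45.4 and 64.8 CPM in ECs. Of these osteoblast markers, 5 of 10 were called lower after SB216763. The 8 fibroblast, pericyte, and smooth muscle markers summed to between 3446 and 3618 CPM in control osteoblasts, to between 1232 and 1278 CPM after SB216763, where Acta2 and Cspg4 were called lower (2 of 7 tested), and to between 41.2 and 42.6 CPM in ECs. Against the fall of this sum, Pdgfra, Pdgfrb, and Lum rose after SB216763, with log2 fold changes of 1.01, 1.56, and 0.72. The 4 lymphatic endothelial markers summed to between 90.8 and 102 CPM in control osteoblasts and between 91.7 and 102 CPM in treated ones, nearly all Pdpn, and to between 248 and 264 CPM in ECs, from Flt4 and Lyve1 with Prox1 near 0. The 7 lung epithelium markers summed to at most 3.79 CPM in any library, with Epcam at 0 in all of them. The 7 blood cell markers summed to between 26.0 and 27.7 CPM in control and between 8.28 and 9.93 CPM in treated osteoblasts. In ECs they summed to between 56.3 and 58.4 CPM, most of it Cd68 at 46.6 CPM, while Ptprc, which defines leukocytes, was at 0.0915 CPM and Cd3e at 0. In these bulk libraries, fewer cells of a type and less RNA per cell cannot be told apart.

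Upstream sequences were read for the 7 members with an entry in the RefSeq promoter table, all but Znrf3, Notum, and Apcdd1. They are the 250 bases before the annotated transcription start on GRCm38.p6, written 5′ to 3′ on the strand of the gene. Both strands were searched for the TCF/LEF core as any of 4 words, namely CTTTGAT with its variants CTTTGAA, next CTTTGTT, and finally CTTTGTA. The GC box GGGCGG, to which SP-family factors are known to bind, was searched likewise. Capitals mark the TCF/LEF words in Sp5 and the GC boxes in Axin2. Sp5 is shown because it holds TCF/LEF words and had no count in any osteoblast library, Axin2 because it is the usual readout of the pathway, and Nkd2 because it had the largest fitted decrease among the members tested after SB216763.
Sp5 (chr2:70474673-70474922, plus strand): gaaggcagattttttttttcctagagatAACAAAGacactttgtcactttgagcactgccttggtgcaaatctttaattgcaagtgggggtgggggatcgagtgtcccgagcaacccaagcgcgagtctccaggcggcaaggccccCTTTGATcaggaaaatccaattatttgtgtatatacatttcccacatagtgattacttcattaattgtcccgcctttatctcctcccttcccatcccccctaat
Axin2 (chr11:108920099-108920348, plus strand): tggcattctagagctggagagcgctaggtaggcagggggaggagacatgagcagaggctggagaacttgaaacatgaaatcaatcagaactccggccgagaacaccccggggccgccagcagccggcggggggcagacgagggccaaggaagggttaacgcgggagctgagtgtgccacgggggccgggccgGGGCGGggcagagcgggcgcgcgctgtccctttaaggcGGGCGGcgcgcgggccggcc
Nkd2 (chr13:73847632-73847881, minus strand): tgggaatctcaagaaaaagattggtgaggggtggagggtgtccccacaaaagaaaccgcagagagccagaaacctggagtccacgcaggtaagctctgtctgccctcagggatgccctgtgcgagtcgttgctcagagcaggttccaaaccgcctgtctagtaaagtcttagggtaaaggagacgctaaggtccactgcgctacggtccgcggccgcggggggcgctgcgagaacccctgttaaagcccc

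In the Sp5 sequence the word CTTTGAT lay 104 to 98 bases upstream of the start, and CTTTGTT lay 222 to 216 bases upstream on the opposite strand. The Axin2 sequence held no TCF/LEF word and held GGGCGG 58 to 53 and 20 to 15 bases upstream. The Nkd2 sequence held neither motif. Over 12 annotated starts of the 7 members, a TCF/LEF word was found at 2 starts, that of Sp5 and an alternative start of Lef1, and a GC box at 6 starts, of Axin2, Tcf7, and Lef1. The windows of Lef1 starts 1 and 2 overlap, and the same GC box is counted at both. Of 32851 starts in the whole table, 14.8% held a TCF/LEF word, 3.21% held CTTTGAT, and 32.7% held GGGCGG. Counted per gene, 3 of 7 members held a GC box, beside 35.4% of all genes in that table. A TCF/LEF word was held by 2 of 7 members, beside 16.75% of genes. A match is a description of the letters in the window, and a window without a match tells nothing about binding.

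After SB216763, 5 of the 10 members were called lower and 0 were called higher: Axin2, Tcf7, Rnf43, Nkd2, and Apcdd1. A call needed both a log2 fold change of 2 or more in size and, in edgeR's quasi-likelihood test over 15531 genes, an FDR below 0.01 after Benjamini-Hochberg adjustment; these cutoffs follow the methods of the study. Of all genes tested, 5.84% were called lower and 3.81% higher by that rule. Rnf43 and Nkd2 passed the filter on low counts through their control libraries alone. Their place in the counts of lower members therefore follows from that filter. Without the fold cutoff, Lef1 joined the lower members for 6 in all, beside 32.0% of all genes, and 0 members were higher, beside 32.9%. By that rule alone, 4966 genes were lower and 5117 higher with TMM, compared with 3828 lower and 6722 higher when libraries were scaled by their totals only. All 3 treated libraries lay below all 3 control libraries for 8 of 10 members, a pattern seen for 35.9% of all genes tested. The 8 include Nkd1 and Notum, which are not among the genes tested. The reverse was seen for 0 members and 37.3% of all genes. With TMM, Znrf3 overlapped between the groups, and Sp5 was at 0 in both.

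**Figure D1:**
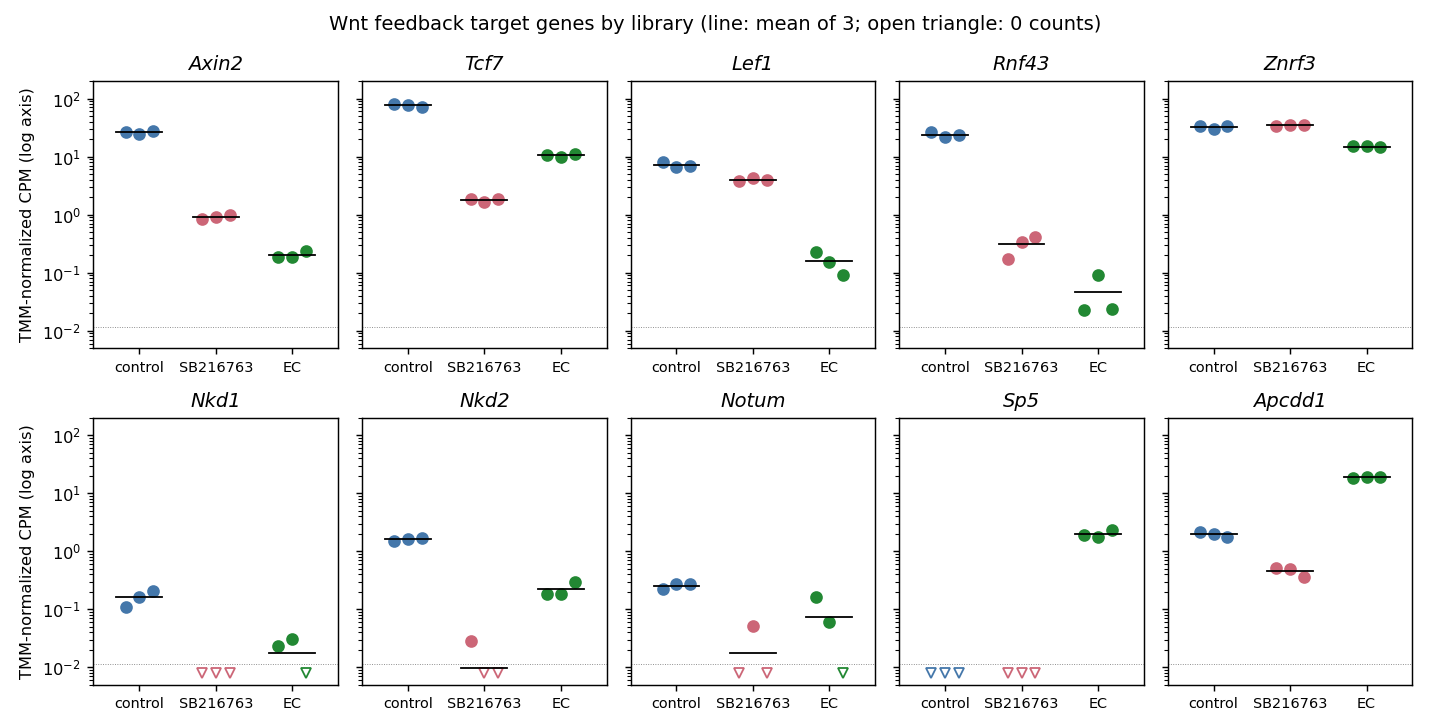
Each panel shows 1 gene, with TMM-normalized CPM on a log axis for every library of the control, SB216763, and EC groups (3 each); lines are group means, and open triangles below the dotted line mark libraries with 0 counts. All members but Znrf3 and Sp5, 8 of 10, stood lower in all treated than in all control libraries, beside 35.9% of all genes tested. Znrf3 overlapped, and Sp5 had counts only in ECs.

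Axin2, the inducible scaffold of the β-catenin destruction complex (ENSMUSG00000000142.15, chr11:108920349-108950783, plus strand, GRCm38), was at 26.5, 24.4, and 27.2 CPM in control osteoblasts. After SB216763 it was at 0.831, 0.912, and 0.980 CPM, from 29, 35, and 36 counts. The groups were far apart relative to the spread within them. The mean fell from 26.0 ± 1.46 to 0.908 ± 0.0746 CPM (SD, n = 3), a 28.4-fold decrease (log2 fold change −4.83 ± 0.10 SE, edgeR quasi-likelihood adjusted p = 4.06e-16). Ordered by log2 fold change from the lowest, Axin2 was number 131 of the 15531 genes tested.

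Tcf7 and Lef1 encode TCF/LEF transcription factors, the DNA-binding partners of β-catenin. Tcf7 (ENSMUSG00000000782.15, chr11:52252371-52283014, minus strand) was at 79.2, 75.9, and 72.6 CPM in control and at 1.86, 1.67, and 1.82 CPM in treated osteoblasts. Its decrease was 42.6-fold (log2 fold change −5.41 ± 0.08 SE, edgeR adjusted p = 1.48e-17). Lef1 (ENSMUSG00000027985.14, chr3:131110471-131224356, plus strand) was at 7.95, 6.59, and 6.81 CPM in control and at 3.76, 4.25, and 3.89 CPM in treated osteoblasts. The Lef1 libraries did not overlap either, but the decrease was 1.80-fold, short of the fold cutoff (log2 fold change −0.85 ± 0.11 SE, edgeR adjusted p = 3.88e-06). An antisense gene, Gm43352, overlaps the exons of Lef1 over 1208 bp, and held 74 counts over all 9 libraries. The strand setting of the counting is not given in the sources used here, so reads of the pair cannot be told apart where they overlap. Per length, Tcf7 exceeded Lef1 by 33.3, 38.6, and 35.7 times in RPKM (CPM per kilobase of exon) in the control libraries, and by 1.66, 1.31, and 1.57 times in the treated ones. The direction in treated libraries depended on the length used, the union of exons here: with the longest transcript the ratios were 0.734, 0.581, and 0.693, below equality, and in control libraries 14.7, 17.0, and 15.8.

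Rnf43 and Znrf3 encode transmembrane E3 ubiquitin ligases that remove Frizzled receptors from the cell surface and that R-spondins, acting through LGR receptors, inactivate. Rnf43 (ENSMUSG00000034177.15, chr11:87662722-87735539, plus strand) was at 26.6, 21.8, and 23.1 CPM in control osteoblasts and at 0.172, 0.339, and 0.408 CPM after SB216763, the latter from 6, 13, and 15 counts. It fell 76.6-fold (log2 fold change −6.26 ± 0.17 SE). No p is given, as Rnf43 passed the filter on low counts through its control libraries alone. Znrf3 (ENSMUSG00000041961.14, chr11:5276324-5444847, minus strand) was at 33.7, 30.1, and 34.1 CPM in control and at 33.3, 34.4, and 35.6 CPM in treated osteoblasts. These libraries overlapped, and the log2 difference of 0.08 ± 0.06 (SE) did not pass (edgeR adjusted p = 0.204). The overlap depended on the scaling. With library totals only, Znrf3 was at 31.1, 27.9, and 31.7 CPM in control and at 35.6, 36.2, and 38.4 CPM in treated osteoblasts. The log2 fold change was then 0.29, still far under the fold cutoff. The ratio of Rnf43 to Znrf3, in RPKM, was 0.950, 0.872, and 0.815 in the control libraries and 0.00621, 0.0119, and 0.0138 in the treated libraries. With the longest transcript the control ratios were 1.16, 1.06, and 0.992. Thus the paralogs stood close to each other in control osteoblasts and apart in treated osteoblasts.

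Nkd1 and Nkd2 encode the Naked cuticle proteins, which bind Dishevelled. Nkd2 (ENSMUSG00000021567.14, chr13:73818534-73847631, minus strand) was at 1.51, 1.64, and 1.70 CPM in control osteoblasts, from 96, 90, and 49 counts. The treated libraries held 1, 0, and 0 counts. The ratio of the pooled levels was 176, with an exact 95% counting interval from 31.2 to 6964. No p is given, as Nkd2 passed the filter on low counts through its control libraries alone. The fitted log2 fold change of −7.06 ± 0.47 (SE) depends on the prior count added to such low values. It became −9.11 without treated replicate 1, the library that holds the 1 count; against a floor of 3 counts over the remaining libraries, Nkd2 was then at least 40.0-fold lower. Nkd1 (ENSMUSG00000031661.12, chr8:88521354-88594884, plus strand) had 7, 9, and 6 counts in control libraries and 0 in each treated library, at least 5.48-fold lower against a floor of 3 counts over the group. Nkd1 did not pass the filter for testing.

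Notum encodes a secreted carboxylesterase that removes the lipid from Wnt ligands, and Apcdd1 encodes a membrane glycoprotein that inhibits Wnt signaling. Notum (ENSMUSG00000042988.10, chr11:120653788-120661175, minus strand) had 14, 15, and 8 counts in control and 0, 2, and 0 in treated libraries. The control over treated ratio was 13.8, with an exact 95% counting interval from 3.57 to 118, and Notum did not pass the filter for testing. The antisense genes Notumos and Myadml2os overlap its exons over 708 and 210 bp, with 2 counts and 1 count over all libraries. Apcdd1 (ENSMUSG00000071847.12, chr18:62922231-62961179, plus strand) was at 2.13, 2.02, and 1.77 CPM in control and at 0.516, 0.495, and 0.354 CPM in treated osteoblasts. It fell 4.39-fold, close to the fold cutoff (log2 fold change −2.14 ± 0.16 SE, edgeR adjusted p = 6.85e-09). The log2 fold change was −1.93 when libraries were scaled by their totals only and −1.99 without treated replicate 3, both short of the cutoff of 2, and when the null was set at a log2 fold change of 2 (edgeR's glmTreat) its adjusted p was 1.

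Sp5, a zinc-finger transcription factor of the SP family (ENSMUSG00000075304.2, chr2:70474923-70477729, plus strand), was listed at 0 in all 6 osteoblast libraries. With 3 counts as the limit that a count of 0 allows, that places each library under 0.0435 to 0.0968 CPM, and no fold between treated and control osteoblasts was taken. Intervals and limits of this kind cover counting error only.

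Summed over the 10 members, the level was between 163 and 178 CPM in control libraries and between 40.5 and 43.1 CPM in treated libraries. Tcf7 and Znrf3 made up 63.5% to 65.1% of that sum in control and 85.6% to 86.9% in treated libraries. For the 9 members with any count in osteoblasts, the log2 ratio of pooled levels had a median of −3.79, with Nkd1 entered at its bound, and ranged from −7.46 to 0.09. The median member was Notum, with 2 treated counts. Over the 20245 genes with more than 3 counts in either group, the same ratio had a median of 0.01. The summed levels of the osteoblast markers and of the fibroblast, pericyte, and smooth muscle markers also fell, as given above. By FDR alone, 8 osteoblast markers were lower and 0 higher. Single markers of the fibroblast, pericyte, and smooth muscle list were divided, with 3 lower, 3 higher, and a median log2 fold change of 0.41. The part of either list in these differences was not tested.

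The members were next set beside their levels in ECs. Against control osteoblasts, 5 of 10 members were called lower in ECs, namely Axin2, Tcf7, Lef1, Rnf43, and Nkd2, beside 9.87% of all genes. Sp5 and Apcdd1 were called higher, beside 13.5%. Sp5 passed the filter on low counts through its EC libraries alone, so its place in the counts of higher members follows from that filter. Rnf43 and Nkd2 passed it through their control libraries alone, so the same holds for their place among the lower members. Without the fold cutoff, Znrf3 joined the lower members for 6 in all (37.9% of all genes), and 2 were higher (39.0%). The EC libraries lay below all control libraries for 8 members and above them for 2, compared with 41.4% and 42.6% of all genes tested. The 8 include Nkd1 and Notum, which are not among the genes tested. The comparison shares its control libraries with that of SB216763, so the values are given side by side and no overlap was tested.

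**Figure D2:**
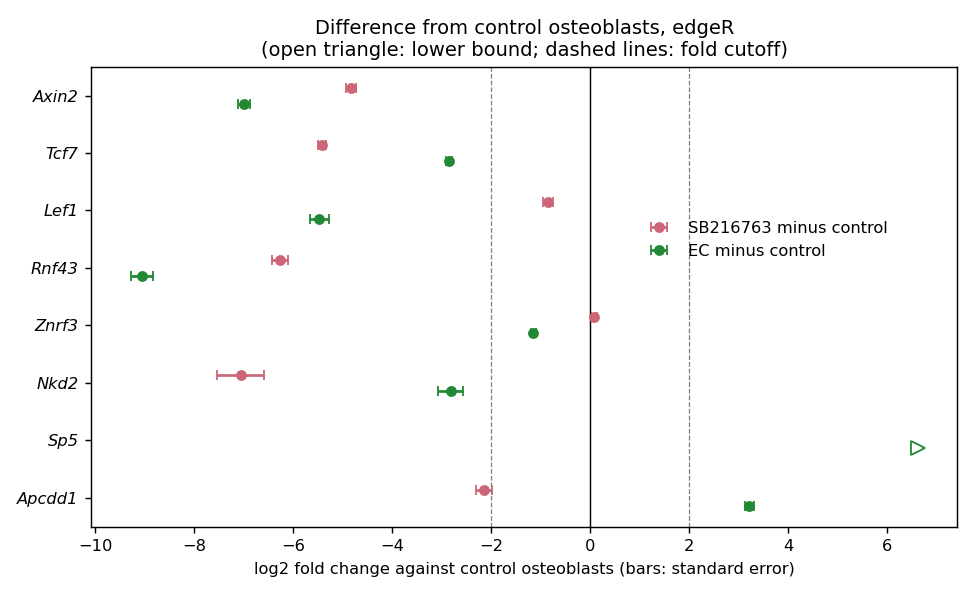
Log2 fold changes (points) with standard errors (bars) from edgeR for the members tested, SB216763 minus control and EC minus control, with dashed lines at the fold cutoff of 2. Tcf7 and Nkd2 stood further below control after SB216763 than in ECs, Axin2, Lef1, and Rnf43 further below in ECs, and the open triangle for Sp5 is a lower bound.

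Axin2 was at 0.183, 0.183, and 0.232 CPM in ECs, from 8, 6, and 10 counts, 127-fold below control osteoblasts (log2 fold change −6.99, edgeR adjusted p = 2.00e-17). Lef1 was at 0.229, 0.152, and 0.0927 CPM, 44.3-fold below control (log2 fold change −5.47, edgeR adjusted p = 2.66e-13). Rnf43 had 1, 3, and 1 counts in ECs. In ECs these 3 genes thus rested on at most 10 counts per library. For Rnf43 the fitted log2 fold change against control was −9.06, and it was −9.85 without EC replicate 2, which holds 3 of the 5 counts.

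Tcf7 was well detected in ECs, at 10.7, 9.75, and 11.1 CPM, 7.19-fold below control osteoblasts (log2 fold change −2.85, edgeR adjusted p = 1.46e-16). The EC libraries thus lay between the control and the treated osteoblasts for Tcf7. Nkd2 was also intermediate, at 0.183, 0.183, and 0.301 CPM (log2 fold change against control −2.82). Znrf3 was at 14.9, 15.0, and 14.3 CPM in ECs, lower than in control osteoblasts by less than the fold cutoff (log2 fold change −1.14, edgeR adjusted p = 3.08e-11). Of the members that were not tested, Nkd1 had 1, 1, and 0 counts in ECs, for a control over EC ratio of 8.94 (exact 95% counting interval 2.20 to 78.5). Notum had 7, 2, and 0 counts, for a ratio of 3.34 (exact 95% counting interval 1.58 to 7.88).

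Apcdd1 and Sp5 were the members with their highest level in ECs. Apcdd1 was at 18.4, 18.9, and 18.9 CPM, 9.32-fold above control osteoblasts (log2 fold change 3.22, edgeR adjusted p = 4.00e-15). Sp5 had 83, 58, and 100 counts in ECs, or 1.90, 1.77, and 2.32 CPM, at least 98.8-fold higher than in control osteoblasts against a floor of 3 counts over the group. Sp5 passed the filter on low counts through its EC libraries alone, so its call follows from that filter and no p is given.

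Treated osteoblasts and ECs were compared directly, with libraries that both comparisons above also use. Axin2, Lef1, and Rnf43 were called higher in treated osteoblasts, beside 10.3% of all genes, and Tcf7, Nkd2, Sp5, and Apcdd1 were called lower, beside 15.0%. The place of Sp5 in the counts of lower members again follows from the filter on low counts. Without the fold cutoff, Znrf3 joined the higher members, for 4 higher (38.3% of all genes) and 4 lower (40.3%). The libraries did not overlap for the same 4 members in the higher direction (41.6% of all genes) and the same 4 in the lower direction (43.8%). The log2 differences were 2.16 for Axin2, 4.62 for Lef1, and 2.80 for Rnf43. With a prior count of 2, the fold changes of Axin2 and Rnf43 shrank to 1.95 and 1.99 and only Lef1 stayed past the cutoff, and Rnf43 was at 3.59 without EC replicate 2. With the null set at a log2 fold change of 2, Axin2, Rnf43, and Nkd2 did not pass either (edgeR glmTreat adjusted p = 0.48, 0.166, and 0.0107). The log2 differences were −2.57 for Tcf7, −5.36 for Apcdd1, and, as a fitted value that rests on 1 treated count, −4.24 for Nkd2. Without treated replicate 1, Nkd2 was at least 5.65-fold lower in treated osteoblasts than in ECs, and Sp5 was at least 73.8-fold lower in the full data. Znrf3 was higher in treated osteoblasts by 1.22 on the log2 scale, under the fold cutoff (edgeR adjusted p = 1.22e-11). For Notum the EC over treated ratio was 4.13, with an exact 95% counting interval from 0.856 to 39.3 that includes equal levels.

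Levels between members were compared per length only, in RPKM over the union of the exons. In control osteoblasts the order of mean RPKM was Tcf7 (28.9), Axin2 (4.72), Znrf3 (4.13), Rnf43 (3.63), Lef1 (0.810), Nkd2 (0.335), Apcdd1 (0.153), Notum (0.107), Nkd1 (0.0353), and Sp5 (0). Of these neighbors, Znrf3 and Rnf43 overlapped between libraries and the others did not, and with the longest transcript Rnf43 (5.53 RPKM) came before Znrf3 (5.17 RPKM). In treated osteoblasts Znrf3 led at 4.36 RPKM, followed by Tcf7 at 0.680, Lef1 at 0.451, and Axin2 at 0.165. With the longest transcript Lef1 came before Tcf7, at 1.08 and 0.723 RPKM. Below them, Rnf43 at 0.0467 and Apcdd1 at 0.0353 RPKM overlapped, and the remaining 4 members had at most 2 counts in the group. In ECs the order was Tcf7 (4.01 RPKM), Znrf3 (1.87), Apcdd1 (1.46), and Sp5 (0.950), each without overlap with the next. The other 6 members were at 0.0461 RPKM or less in ECs, and neighbors among them overlapped. Among these, Lef1 came before Notum with the longest transcript (0.0432 and 0.0333 RPKM). The ratio of Tcf7 to Lef1 in ECs was 157, 214, and 402 in RPKM, above that in every osteoblast library.

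**Figure D3:**
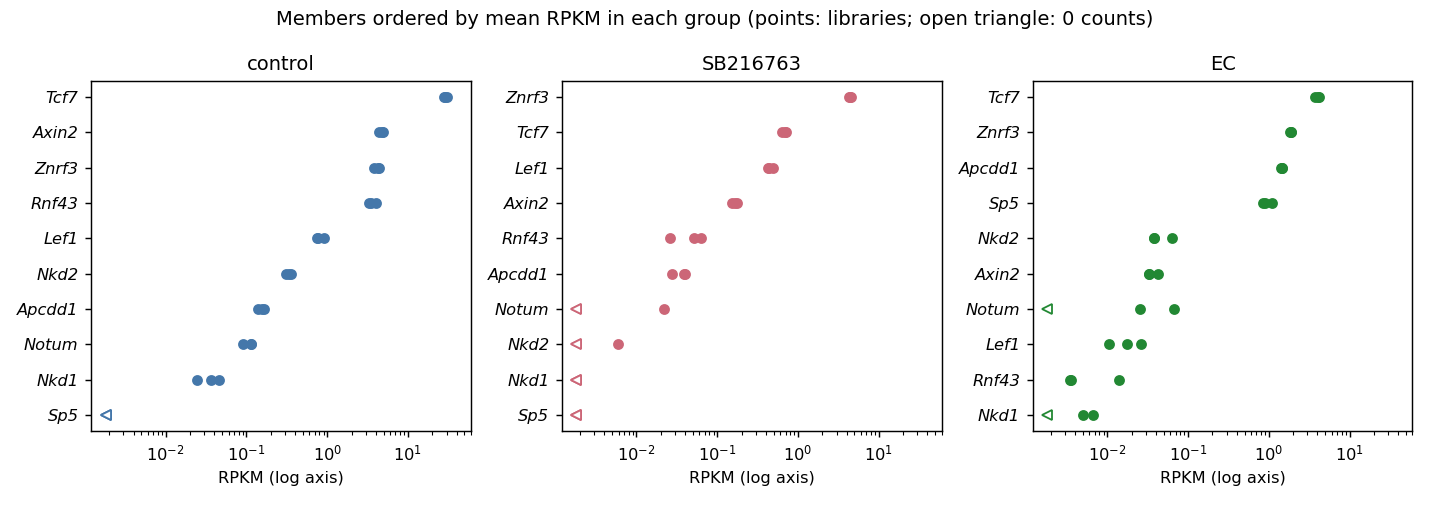
RPKM on a log axis for each library (points) in control osteoblasts, SB216763-treated osteoblasts, and ECs, with members ordered by the group mean and open triangles for 0 counts. Tcf7 headed the order in control osteoblasts and ECs, Znrf3 in treated osteoblasts, and Sp5 was last or at 0 in both osteoblast groups.

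The genes that the members act with were described from lists written by role. After SB216763, 5.84% of all genes tested were called lower and 3.81% higher. By FDR alone, 32.0% of all genes were lower and 32.9% higher. At these shares, a list as short as those below can hold 0 called genes, and differences between lists were not tested. In the TCF/LEF and β-catenin transcription complex, 0 of 14 genes tested were called in either direction after SB216763, with a median log2 fold change of 0.23, beside 0.01 for all genes. By FDR alone, 8 of these rose and 2 fell. Ctnnb1, which encodes β-catenin, was at 587, 571, and 576 CPM in control and at 683, 692, and 658 CPM in treated osteoblasts (log2 fold change 0.23 ± 0.05 SE, edgeR adjusted p = 2.90e-04). The paralogs of Tcf7 and Lef1 moved by less than the fold cutoff, Tcf7l1 by 0.82 (edgeR adjusted p = 1.57e-10) and Tcf7l2 by −0.50 (edgeR adjusted p = 2.14e-05).

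In the destruction complex with Dishevelled, 0 of 11 genes tested were called, with a median of 0.23, and by FDR alone 6 rose and 2 fell. Axin1, the constitutive counterpart of Axin2, was higher by 0.33 (log2, edgeR adjusted p = 1.30e-05). Gsk3a and Gsk3b, which encode the kinases that SB216763 inhibits, had log2 fold changes of 0.03 (edgeR adjusted p = 0.613) and −0.16 (edgeR adjusted p = 0.0182), the latter 0.05 when libraries were scaled by their totals only. Among the Dishevelled genes, Dvl1 and Dvl2 were higher by 0.54 and 0.51 and Dvl3 differed by −0.29 on the log2 scale.

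Of the receptors and R-spondins, 14 of 19 were tested, 1 was called higher and 1 lower, and the median was −0.81. By FDR alone, 3 rose and 9 fell. Lrp5, a Wnt co-receptor, rose from 103, 95.6, and 105 CPM to 465, 493, and 473 CPM (log2 fold change 2.24 ± 0.05 SE, edgeR adjusted p = 1.60e-15), whereas Lrp6 differed by 0.18 (edgeR adjusted p = 0.0449). Rspo2, a secreted ligand that inactivates the RNF43 and ZNRF3 ligases, fell from 35.3, 39.7, and 35.2 CPM to 0.545, 0.573, and 0.654 CPM (log2 fold change −5.95 ± 0.11 SE, edgeR adjusted p = 1.90e-16). The R-spondin receptors Lgr4 and Lgr6 had log2 fold changes of −0.92 and 1.22, and Lgr5 had too few counts for a test.

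A further list held the Wnt ligands together with Porcn, the acyltransferase that lipidates them, and Wls, which carries them to the cell surface. Of its 21 genes 11 were tested, 4 were called lower and 0 higher, and the median was −0.85. By FDR alone, 4 rose and 7 fell, with Wls among the former (log2 fold change 1.09) and Porcn among the latter (−0.85). The 4 genes called lower were all ligands. Wnt4 fell from between 29.5 and 30.6 CPM to between 0.602 and 0.871 CPM (log2 fold change −5.31), Wnt10a fell likewise (log2 fold change −2.69), and Wnt11, which was near 1 CPM in control osteoblasts and had 1 count in treated osteoblasts, had a fitted value of −6.57. The fourth, Wnt6, at −2.03, is named after its value was seen. Scaled by library totals only, Wnt6 was at −1.82, short of the fold cutoff. Wnt10b, named likewise, stood just short of the cutoff at −1.99995 and past it with DESeq2 and limma-voom, at −2.006 and −2.002. Of the Wnt antagonists, which included the transmembrane Kremen1 and Kremen2 and the membrane-anchored protease Trabd2b beside secreted proteins, 9 of 16 were tested, with 4 called lower and 1 higher and a median of −0.55. By FDR alone, 2 rose and 4 fell. Dkk2, Wif1, and Sfrp2 fell, with log2 fold changes of −6.04, −4.16, and −3.83, the first a fitted value from at most 0.0545 CPM in treated libraries. Trabd2b, at −3.00, and Frzb, the 1 called higher from 0 counts in every control library and at most 0.172 CPM in treated libraries, are also named after their values were seen. The call of Frzb was lost with a prior count of 2, with the null set at the fold cutoff, and in a fit of the 2 groups alone.

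Of 30 other reported β-catenin targets, 21 were tested, 6 were called lower and 0 higher, and the median was −0.95. By FDR alone, 5 rose and 14 fell. Tnfrsf19, a TNF-receptor family member, fell from 805, 797, and 786 CPM to 30.9, 30.2, and 28.1 CPM (log2 fold change −4.74 ± 0.06 SE, edgeR adjusted p = 6.38e-18). Bmp4 and Fgf18, which encode secreted growth factors, fell, with log2 fold changes of −4.28 and −3.91. The other 3, named after their values were seen, were Myc at −3.73, Ccn4 at −2.72, and Tnfrsf11b at −2.47. Scaled by library totals only, 7 genes of these lists turned from a negative to a positive log2 fold change (Bcl9l, Ctnnbip1, Gsk3b, Csnk1a1, Fzd1, Kremen1, and Ccn5), none of which had passed the FDR. In ECs, Myc was at 134, 127, and 137 CPM, lower than in control osteoblasts by less than the fold cutoff (log2 fold change −0.76, edgeR adjusted p = 3.42e-10), and Bmp4 was at 133, 134, and 139 CPM.

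**Figure D4:**
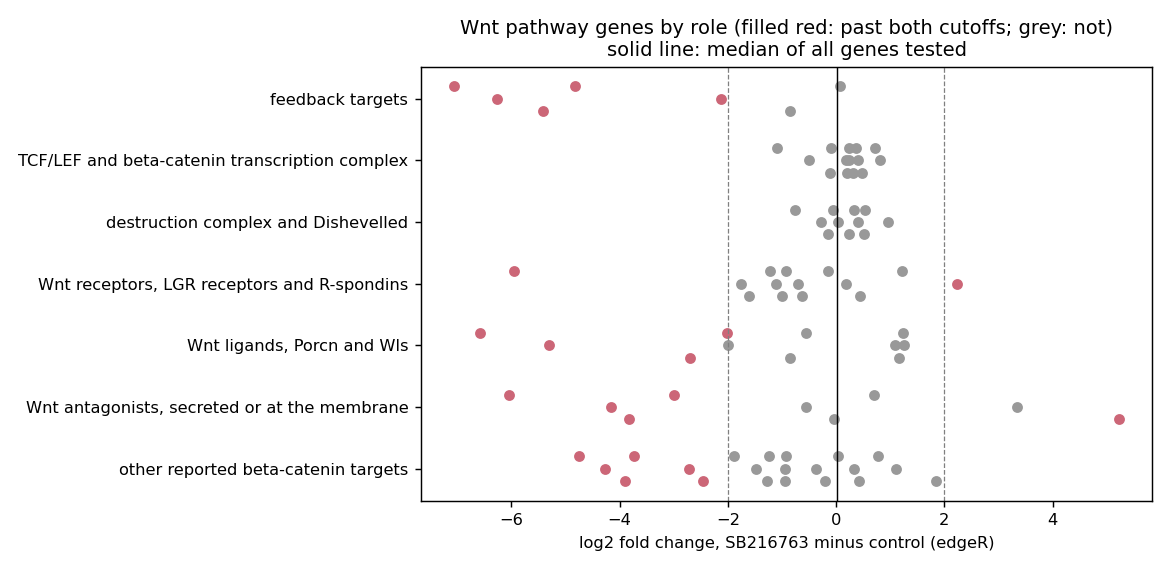
Log2 fold change between SB216763-treated and control osteoblasts for every gene tested, by role (points, red where both cutoffs were passed), with the median of all genes (solid line) and the fold cutoff (dashed lines). Of the feedback targets 5 stood past the cutoff and of the transcription complex and the destruction complex 0 did. Of all genes tested, 5.84% were called lower and 3.81% higher.

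The genes nearest to Axin2 in pattern were searched over the 13326 genes tested that averaged 1 CPM or more in a group. The measure was the distance between their 2 log2 fold changes against control, SB216763 and EC, from 9 libraries. The nearest 5 were Arhgdig at a distance of 0.26, Asb2 at 0.31, Il1rl1 at 0.32, Colq at 0.42, and Ldb3 at 0.48. Il1rl1 was at a mean of 14.7, 0.473, and 0.0943 CPM in control, treated, and EC libraries, and Colq at 25.6, 0.708, and 0.245 CPM. Arhgdig was at 1.70, 0.0546, and 0.00772 CPM and Asb2 at 1.42, 0.0369, and 0.0102 CPM in the same order. Their fold changes, and so their places as nearest, depend on the prior count added to such low values. The distance describes these 3 groups only.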

How the data were processed

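RNA-Seq libraries of control MC3T3-E1 osteoblasts, SB216763-treated osteoblasts, and mouse pulmonary ECs, 3 of each, were analyzed from 1 table of gene counts. The authors deposited raw counts per gene, whole numbers without normalization. The submitters' processing notes name STAR 2.5.3a and GRCm38; the study states that STAR gave both alignment and gene counts. The annotation release and the strand setting are not given in the sources used here. The protocol text of the labels gives SB216763 for every sample, so groups were taken from the titles and treatment entries.

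Counts were tested in R 4.3.3 with edgeR 4.0.16 (filterByExpr by group, TMM, glmQLFit and glmQLFTest, all 9 libraries, group only), with Benjamini-Hochberg adjustment over 15531 genes and a prior count of 0.125 in log2 fold changes. The procedure was tested on simulated data. Symbols were found for 50376 genes, and coordinates and exon lengths come from GENCODE mouse release 21 on GRCm38. RPKM used the union of exons. Ratios of pooled counts carry exact 95% counting intervals, and a group at 0 was set to a floor of 3 counts over the group. Depth ranged from 30990107 to 68946333 counts per library, and no pair of libraries differed by as little as sampling noise.

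The members and lists were chosen with earlier results of these data known. Named genes were the members, their partners, and of each list the 3 called genes with the largest change whose higher group averaged 1 CPM or more; others are marked where they appear. Alternatives were library size and upper-quartile scaling, DESeq2 1.42.0, limma-voom (limma 3.58.1), other filters and cutoffs, fits of 2 groups, a replicate block, a prior count of 2, and leaving out each library.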

Additional observations from a re-analysis of the deposited data

How the results depend on the processing

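The numbers of members called after SB216763, 5 lower and 0 higher, and in ECs against control, 5 lower and 2 higher, stayed between 4 and 7, at 0, between 5 and 6, and at 2 under the alternatives run. Sp5 is among the 2 called higher in ECs, and its call follows from the filter on low counts. Rnf43 and Nkd2 are among the lower members in both comparisons, and their calls follow from that filter in the same way. The number called higher in treated osteoblasts than in ECs was 3, but 1 with a prior count of 2 and 1 when the null was set at a log2 fold change of 2 (glmTreat). Nkd1 and Notum did not pass the filter used above, and the 7 lower after SB216763 was reached only where an alternative let them through. For the other members, over all alternatives, there were 8 cases in which a log2 fold change lost its call. There were 2 in which one gained it, and none changed direction. The losses were of Apcdd1 after SB216763 and of Axin2, Rnf43, and Nkd2 between treated osteoblasts and ECs, and both gains were of Znrf3, against ECs and in ECs against control, with a fold cutoff of 1 on the log2 scale. Scaling by library totals only moved the median of all genes from 0.01 to 0.22 for SB216763 against control and from 0.01 to 0.13 for ECs against control. The replicate numbers were not taken as pairs, because the methods of the study do not describe pairs. Same-numbered libraries of treated and control osteoblasts had correlations of their deviations from 0.00286 to 0.123. Those of ECs and control ran from −0.0251 to 0.0337, and those of treated osteoblasts and ECs from −0.0392 to 0.0102. Libraries of the first group correlated best with their own number in 2, 1, and 0 of 3 cases. For treated against control osteoblasts, these values do not settle whether the numbers mark pairs. With the replicate number as a block, 5 members were called lower after SB216763, and 901 genes were called lower and 581 higher instead of 907 and 592. Depth limits the statements on Nkd1, Notum, Nkd2 after SB216763, and Rnf43 in ECs, which rest on few counts, and the order of levels turned for Tcf7 and Lef1 in treated osteoblasts, Znrf3 and Rnf43 in control osteoblasts, and Notum and Lef1 in ECs when RPKM used the longest transcript.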
